A study of Homo sapiens with 4 samples.

Results

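The loci of 8 genes that cells switch on within minutes of a stimulus or under stress were examined: JUN, FOS, JUNB, EGR1, ATF3, DUSP1, CDKN1A and GADD45A. A listed ATAC-seq peak belonged to a gene when its summit lay in the gene body or within 25 kb of it, on the hg19 build, so the members were chosen by position and not by their values. These windows held 67 of the 161535 peaks of the GSK2879552 list and 77 of the 191905 peaks of the vehicle list on chromosomes 1 to 22, X and Y. ATAC-seq maps open chromatin with a transposase that inserts sequencing adapters into accessible DNA. The cells were LNCaP, an androgen-sensitive human prostate cancer line, treated with GSK2879552 or given vehicle. GSK2879552 blocks LSD1, also called KDM1A, which removes methyl groups from histones. The labels state 50 µM for 4 hours in medium with 5% CSS, in text that is the same for all 4 samples, and 10% FBS for maintenance. Each condition was represented by 2 lanes, labelled technical replicates, and by 1 peak list for both lanes, so every comparison below sets 1 library against 1 library with no replicate check and no test. Intervals are 95% intervals of counting error only. Loci that mark prostate cells were not analysed here, since no hg19 gene annotation was used.

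Immediate-early genes are transcribed from promoters that stand open before the stimulus, through factors that are activated by phosphorylation and not by new synthesis. JUN, JUNB and FOS encode subunits of the AP-1 transcription factor, and EGR1 a zinc finger factor made in the same wave. ATF3 is a stress-induced member of the ATF/CREB family, and DUSP1 is a phosphatase that switches off the MAP kinases that induce immediate-early genes. CDKN1A encodes the cyclin-dependent kinase inhibitor p21, and GADD45A a growth arrest and DNA damage protein. Both are classical targets of p53, and LSD1 is known mainly as a corepressor.

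The promoters of 6 of these genes are shown, and they differ in the motif matches they hold. The set of RefSeq promoters used here, on GRCh38.p14, covered 7 of the 8 genes, all but GADD45A. Each promoter has 300 bases, from 250 before to 50 after the start. The capitals mark matches on either strand to TGACGT, the core of the cAMP response element, TGACNTCA, an octamer bound by ATF and JUN proteins, TGANTCA, the AP-1 heptamer, the CArG box of serum response factor, CCAAT and TATAAA. TGACNTCA takes in TGACGT where its variable base is G.
JUN, minus strand, chr1:58783998-58784297: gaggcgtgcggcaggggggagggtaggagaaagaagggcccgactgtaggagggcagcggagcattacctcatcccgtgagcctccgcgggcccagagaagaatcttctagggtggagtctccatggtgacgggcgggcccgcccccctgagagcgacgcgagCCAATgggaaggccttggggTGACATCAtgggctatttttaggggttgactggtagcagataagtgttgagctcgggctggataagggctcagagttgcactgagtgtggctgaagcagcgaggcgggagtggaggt
FOS, plus strand, chr14:75278578-75278877: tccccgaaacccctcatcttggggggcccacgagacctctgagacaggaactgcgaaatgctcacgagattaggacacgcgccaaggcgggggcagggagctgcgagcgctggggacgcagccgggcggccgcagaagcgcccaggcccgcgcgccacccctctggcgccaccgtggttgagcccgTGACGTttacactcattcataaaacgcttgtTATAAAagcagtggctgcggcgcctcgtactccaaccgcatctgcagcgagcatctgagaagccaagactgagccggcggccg
JUNB, plus strand, chr19:12791236-12791535: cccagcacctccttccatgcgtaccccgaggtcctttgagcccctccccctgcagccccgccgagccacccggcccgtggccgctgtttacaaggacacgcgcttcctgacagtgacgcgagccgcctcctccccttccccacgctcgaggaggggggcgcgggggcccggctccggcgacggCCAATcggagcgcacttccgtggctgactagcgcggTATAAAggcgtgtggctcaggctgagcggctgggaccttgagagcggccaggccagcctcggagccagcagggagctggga
EGR1, plus strand, chr5:138465229-138465528: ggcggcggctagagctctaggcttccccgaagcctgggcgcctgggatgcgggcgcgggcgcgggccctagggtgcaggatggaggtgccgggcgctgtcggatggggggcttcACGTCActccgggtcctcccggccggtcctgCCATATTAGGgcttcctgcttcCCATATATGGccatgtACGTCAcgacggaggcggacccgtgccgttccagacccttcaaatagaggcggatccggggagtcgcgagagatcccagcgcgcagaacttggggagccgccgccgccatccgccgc
DUSP1, minus strand, chr5:172771146-172771445: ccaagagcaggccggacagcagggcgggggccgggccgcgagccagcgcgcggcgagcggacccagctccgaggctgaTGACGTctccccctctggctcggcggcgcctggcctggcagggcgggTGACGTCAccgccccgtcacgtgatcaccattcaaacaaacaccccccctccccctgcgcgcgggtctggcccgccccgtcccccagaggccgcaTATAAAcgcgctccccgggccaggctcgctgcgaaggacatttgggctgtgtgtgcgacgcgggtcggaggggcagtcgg
CDKN1A, plus strand, chr6:36678464-36678763: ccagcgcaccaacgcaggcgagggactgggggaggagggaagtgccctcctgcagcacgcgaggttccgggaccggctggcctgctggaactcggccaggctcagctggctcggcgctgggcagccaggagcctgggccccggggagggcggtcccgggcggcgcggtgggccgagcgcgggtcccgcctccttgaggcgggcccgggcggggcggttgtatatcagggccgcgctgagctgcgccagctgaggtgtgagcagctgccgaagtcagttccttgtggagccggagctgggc

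TGACGT was present in the FOS, EGR1 and DUSP1 promoters, against 7.98% of the 35116 promoters of the RefSeq table. EGR1 carried 2 CArG boxes, a motif found in 1.29% of all promoters, and 2 TGACGT matches. The JUN promoter held TGACATCA, a match to TGACNTCA (7.72% of all promoters), 67 bases upstream of the start, and DUSP1 held TGACGTCA. ATF3, whose promoters are not shown, also had TGACATCA, 123 bases upstream of its first RefSeq start, with a CCAAT match. The promoter of its second RefSeq start held TATAAA. No window of the 7 genes held TGANTCA (7.71%). TATAAA stood in the FOS, JUNB and DUSP1 windows shown (11.5%), CCAAT in those of JUN and JUNB (34.6%), and the CDKN1A window held none of the 6 motifs. These matches describe letters and no binding was measured. Sequence further upstream was not read, so a motif absent from a window may stand outside it. The starts of the hg19 and RefSeq gene models were not aligned, so the place of a summit within these windows was not determined.

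All 8 loci were open under both conditions, and the peaks listed after GSK2879552 were fewer and covered less DNA. Every locus but EGR1 and DUSP1 had fewer peaks after GSK2879552. EGR1 had 11 peaks with GSK2879552 and 9 with vehicle, and DUSP1 had 6 in each list. ATF3 had 11 with GSK2879552 against 15 with vehicle, and FOS 13 against 16. The peaks of the 8 loci covered 22909 bp with GSK2879552 and 29415 bp with vehicle, 22.1% less, where all peaks together covered 24.9% less. The covered length was lower by 6.49% at EGR1, the smallest difference, and by 38.7% at ATF3, the largest of the 8 loci. The median width was 248 bp with GSK2879552 and 264 bp with vehicle, against 171 bp and 189 bp over all peaks.

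**Figure D1:**
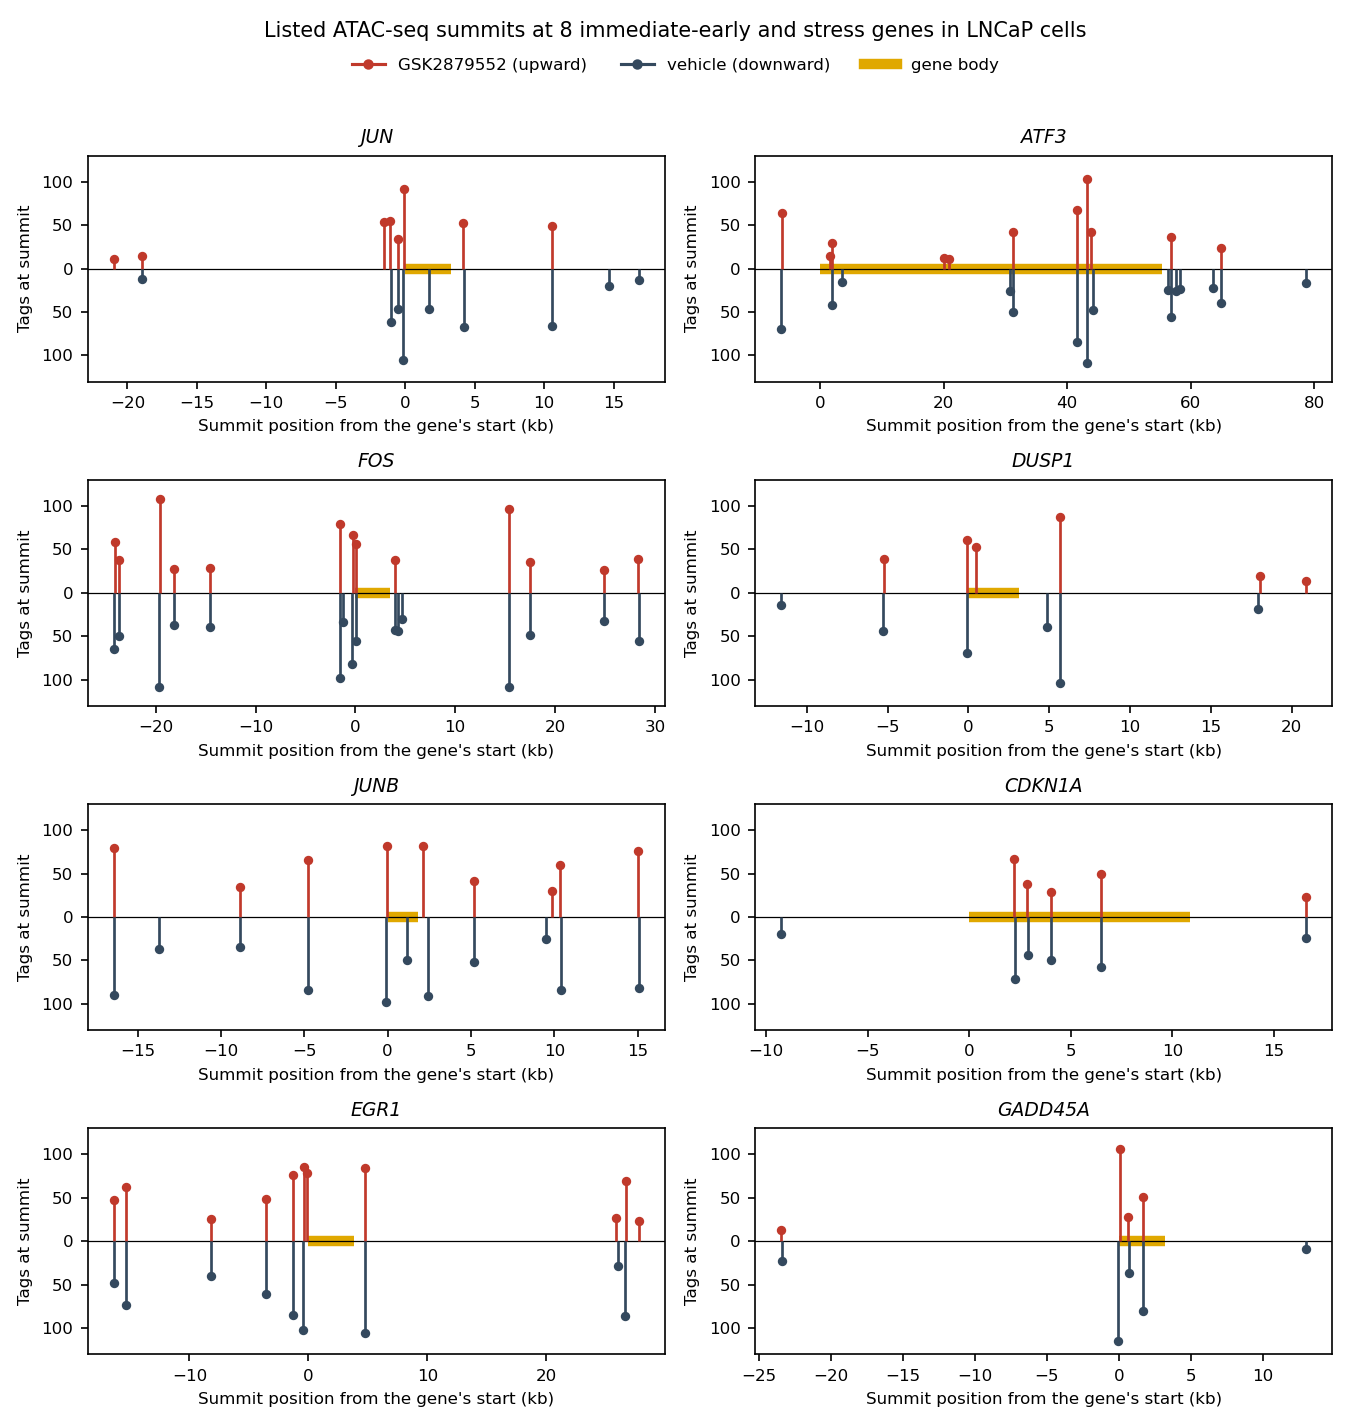
Each stem is a listed peak, placed by the distance of its summit from the gene's start along the direction of transcription (kb), with its height the tags at the summit, GSK2879552 upward and vehicle downward and the gene body as a bar. The strongest summits mirror each other in both lists (106 and 115 tags at the start of GADD45A), and most summits that stand alone are short.

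The tags at each summit, that is the sequenced tags piled up at its highest point, were recovered from the deposited fold and p-value of the peak. The tags in the 10 kb around the summit were inferred too, from the local background of the peak caller, whose window is not stated. The GSK2879552 library was the deeper one by a factor of 1.18, the ratio of the genome-wide backgrounds (2.72 and 2.31 tags), and ratios of GSK2879552 to vehicle were divided by it unless called unscaled. Equal tags therefore give a scaled ratio of 0.851. In 51 cases a member peak of each list overlapped the other and no further peak, and over these pairs 2682 tags with GSK2879552 against 3203 tags with vehicle gave a scaled ratio of 0.712 (0.676 to 0.750). Over the 110134 pairs formed in this way genome-wide the ratio was 0.683. In 46 of the 51 pairs the GSK2879552 library had fewer tags even before scaling (83.3% of all pairs), 4 were equal and 1 was higher. In none of the 51 was the scaled ratio above 1 (5.83% of all pairs). Genome-wide such pairs were mostly weak: 16.0% of pairs with 0 to 39 tags over both lists, against 0.813% of those with at least 100. Of the 51 member pairs, 3 had 0 to 39 tags and 26 had at least 100, so this absence does not set these loci apart. At a scaled difference of 1.5-fold or more, 16 of 51 pairs were lower (45.5% of all pairs). That share depends on tag number: among pairs of at least 100 tags over both lists it was 3 of 26 members, against 29.9% of all such pairs. The interval of each of the 51 ratios included 0.683, so at this depth no single summit could be told apart from the library-wide ratio.

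**Figure D2:**
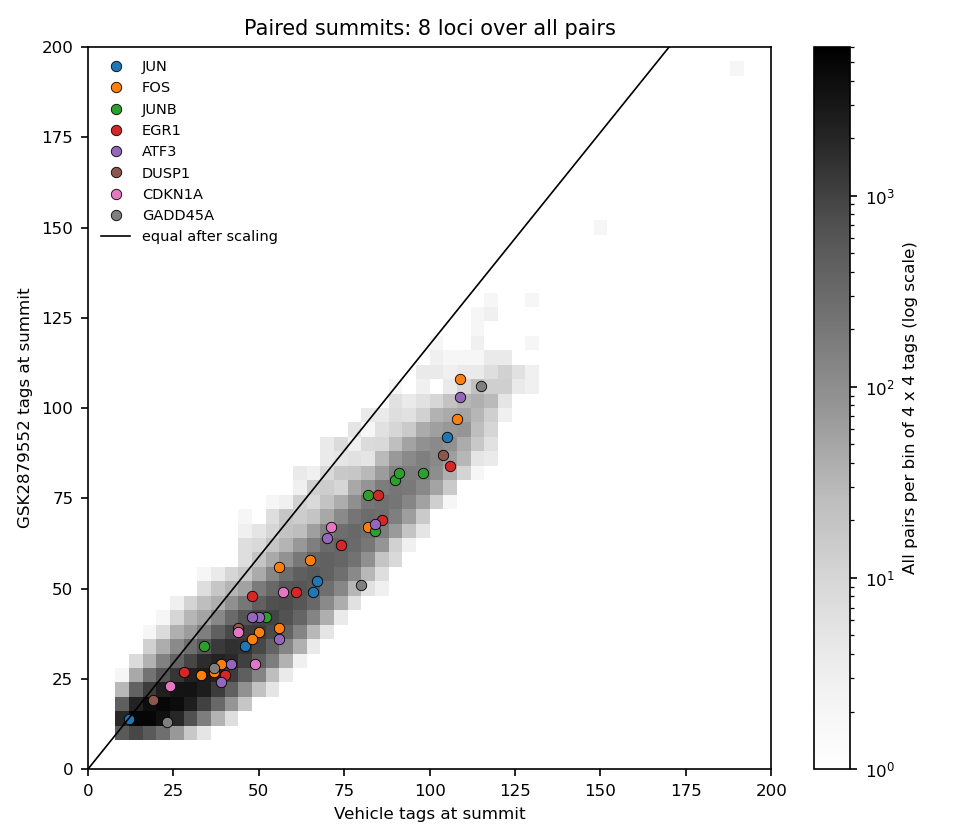
Tags at the summit with GSK2879552 (vertical axis) against vehicle (horizontal axis) for the 51 member pairs, as points coloured by gene, over all 110134 pairs in grey, binned by 4 tags with a log colour scale. The line marks equal tags after scaling by 1.18, and all 51 points lie under it.

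The AP-1 gene JUN is an intronless gene on the minus strand of chromosome 1 (hg19 59246463 to 59249785). Its strongest peak stood at the promoter, with 92 tags after GSK2879552 and 105 with vehicle, and summits 93 and 156 bp upstream of the start (ratio 0.745, 0.557 to 0.996). This summit ranked above 99.4% of the GSK2879552 list and 99.5% of the vehicle list by tags. The element 10.5 kb downstream of the start, past the end of the gene, had 49 tags with GSK2879552 and 66 with vehicle (0.631, 0.427 to 0.928). One vehicle peak 1058 bp upstream, 652 bp wide, was listed as 2 peaks with GSK2879552, of 279 and 199 bp. Inside the transcribed body, 1682 bp from the start, vehicle had a peak of 46 tags over a local background of 19.49 (chr1:59248054-59248297), where GSK2879552 had none. The nearest GSK2879552 peak lay 1335 bp away.

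The 10 kb around the start of JUN, which take in the peaks listed there, also had a low ratio. This window held 1495 tags after GSK2879552 and 1947 with vehicle, a scaled ratio of 0.653 (0.610 to 0.699). Tags outside the peaks were not counted apart. At the element 10.5 kb away the windows held 391 and 388 tags, a ratio of 0.857 (0.743 to 0.989). The intervals of these 2 windows do not overlap. Over the 66021 pairs with a local background above the genome-wide level in both lists, the median 10 kb ratio was 0.892, with 0.693 at the 5th percentile.

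FOS, on the plus strand of chromosome 14 (75745481 to 75748937), encodes the partner of JUN in AP-1. Its start carried 3 neighbouring regions. The summit at the start itself had 56 tags with GSK2879552 and 56 with vehicle (0.851, 0.577 to 1.25). About 300 bp upstream there were 67 and 82 tags (0.695, 0.496 to 0.972). At 1564 bp upstream, GSK2879552 had 1 peak of 79 tags where vehicle had a pair of peaks of 98 and 34 tags. The locus also had strong distal elements. The element 19.6 kb upstream had 108 tags with GSK2879552 and 109 with vehicle (0.843, 0.640 to 1.11). The one 15.4 kb downstream of the start had 97 and 108 (0.764, 0.575 to 1.01).

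Among the 8 starts the lowest 10 kb ratio was that of FOS. Its window held 1340 tags after GSK2879552 and 1915 with vehicle, a scaled ratio of 0.595 (0.555 to 0.639) and an unscaled one of 0.700. Of the 875 pairs with 3000 to 4000 tags in their 10 kb windows over both lists, none had a lower ratio, and the next lowest, 0.605, was the peak about 300 bp upstream, which shares most of the same window. Over all 66021 pairs, 0.209% had a ratio as low. The start summit had equal tags before scaling, while its local background was 13.40 tags after GSK2879552 and 19.15 with vehicle. The 10 kb ratio was 0.710 to 0.774 at the upstream elements between 14.6 and 24.1 kb, and 0.783 to 0.842 at the downstream elements between 15.4 and 28.3 kb. Past the 3′ end the window of a GSK2879552 peak 4019 bp from the start held 1012 tags, against 1513 and 1470 tags for the 2 vehicle peaks it overlapped. A vehicle peak 4655 bp from the start, with 30 tags, had no GSK2879552 partner.

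JUNB, an intronless gene on the plus strand of chromosome 19 (12902310 to 12904125), lies among other genes. RefSeq places the coding genes HOOK2, PRDX2, THSD8 and RNASEH2A in its window, so distal summits there may belong to them. The start summit, 60 and 68 bp upstream, had 82 tags with GSK2879552 and 98 with vehicle (0.712, 0.524 to 0.964). The region just past the 3′ end had 82 and 91 tags (0.766, 0.562 to 1.04). Between them a vehicle peak inside the gene, 1166 bp from the start and with 50 tags (chr19:12903403-12903596), had no partner. Around the start, 10 kb held 1711 tags with GSK2879552 and 2002 with vehicle (0.727, 0.681 to 0.776). A vehicle region 1142 bp wide, 10.4 kb from the start, was listed as 2 peaks of 100 and 539 bp with GSK2879552, and its summit had 84 vehicle tags against 60 at the GSK2879552 summit 30 bp away. JUN and JUNB thus each had a vehicle peak inside the transcribed body with no GSK2879552 peak, both on a high local background.

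EGR1, on the plus strand of chromosome 5 (137801181 to 137805004), had the densest surroundings of the 8 genes. Around the summit nearest the start, 10 kb held 2250 tags with GSK2879552 and 2492 with vehicle (0.768, 0.725 to 0.813), and 24.3% of the 473 pairs with at least 4000 tags had a ratio as low. These summits lay 371 bp apart. The GSK2879552 summit nearest to the vehicle one, 390 and 453 bp upstream, had 2066 tags around it, a ratio of 0.705 (0.665 to 0.748), and 9.51% of the 473 pairs were as low. The vehicle peak at the start, 981 bp wide with 102 tags, corresponded to 2 GSK2879552 peaks of 632 and 248 bp, with 86 and 79 tags. The summit of the second of these lay 82 bp upstream of the hg19 start. In the RefSeq promoter shown above the CArG boxes begin 105 and 83 bases upstream of its own start. Whether this summit lies on them was not determined, since the starts were not aligned. The region beyond the 3′ end had 84 tags with GSK2879552 and 106 with vehicle (0.674, 0.500 to 0.906), over 1259 and 1304 bp. At 1335 bp upstream the 10 kb ratio was 0.733 (0.687 to 0.782), and at 3568 bp upstream 0.769 (0.719 to 0.822). Further upstream the 10 kb ratio was near 1. It was 0.993 (0.901 to 1.10) at the element 16.3 kb upstream, with 897 tags after GSK2879552 and 768 with vehicle, and 1.03 (0.938 to 1.14) at 15.3 kb. At 8190 bp upstream the windows held 756 and 610 tags (1.05, 0.946 to 1.17). The intervals of the windows 8190 bp or more upstream do not overlap those of the start. Downstream, at 25.9 and 26.7 kb, the ratios were lower, 0.872 (0.790 to 0.963) and 0.882 (0.800 to 0.973). RefSeq places the coding gene REEP2 in this window, so distal summits may belong to it. The summit 8190 bp upstream had 26 tags with GSK2879552 and 40 with vehicle (0.553, 0.324 to 0.929), so there the summit ratio was low and the 10 kb ratio was not.

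ATF3 (chromosome 1, 212738676 to 212794119, plus strand) is long, has alternative promoters, and had no listed summit at the annotated start. In the RefSeq gene model a second start lies 49611 bp into the gene. The summit nearest the start had 14 tags with GSK2879552, 1510 bp into the gene, and 42 with vehicle, 1942 bp into it (0.284, 0.143 to 0.530), but these are different peaks. The GSK2879552 summit that matched the vehicle one, 39 bp from it, had 29 tags (0.587, 0.353 to 0.965). The strongest region lay 43 kb into the gene, with 103 tags after GSK2879552 and 109 with vehicle (0.804, 0.608 to 1.06), 751 and 964 bp wide. Whether this region is one of the alternative promoters was not determined. Its 10 kb windows held 1448 and 1786 tags (0.690, 0.643 to 0.740), while the region 1942 bp into the gene held 342 tags in each list (0.851, 0.730 to 0.991). The lowest 10 kb ratio at this gene was 0.642 (0.581 to 0.709), with 700 tags after GSK2879552 and 928 with vehicle, 56.8 kb from the start and so just past the 3′ end. There vehicle had 4 neighbouring peaks, of 56, 26, 25 and 24 tags, and GSK2879552 had 1, of 36 tags. RefSeq places GARIN4 and long noncoding RNA genes in this window.

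DUSP1, on the minus strand of chromosome 5 (172195093 to 172198203), had a vehicle promoter region of 1042 bp, listed as 2 peaks of 481 and 406 bp with GSK2879552. The summits at the promoter, 74 and 72 bp upstream, had 61 tags with GSK2879552 and 69 with vehicle (0.752, 0.524 to 1.08). The strongest element of the locus stood 5668 bp from the start, beyond the 3′ end, with 87 tags after GSK2879552 and 104 with vehicle (0.712, 0.529 to 0.955). Next to it, a vehicle peak of 39 tags had no partner. Around the start, 10 kb held 965 and 1170 tags (0.702, 0.644 to 0.765), and around the downstream element 883 and 1122 tags (0.669, 0.612 to 0.732). At 18024 bp the windows held 435 tags with GSK2879552 and 349 with vehicle (1.06, 0.919 to 1.22).

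CDKN1A (chromosome 6, 36644237 to 36655116, plus strand) showed 4 paired regions within the gene. The one nearest the annotated start lay 2222 and 2257 bp into the gene, with 67 tags after GSK2879552 and 71 with vehicle (0.803, 0.566 to 1.14). In the RefSeq gene model the start whose promoter is shown above lies 2251 bp into the gene. The region 4042 bp into the gene had the lowest ratio of all member pairs with at least 40 tags, 29 tags with GSK2879552 and 49 with vehicle (0.503, 0.307 to 0.813). It was 210 bp wide with GSK2879552 and 457 bp with vehicle. The 10 kb window at the promoter summit held 958 and 1171 tags (0.696, 0.638 to 0.759), and 16.6 kb from the start the windows held 299 and 265 tags (0.960, 0.811 to 1.14). A vehicle peak 9248 bp upstream, of 19 tags, had no partner within 11177 bp. The coding gene RAB44 lies in this window too, as GNG12 does in that of GADD45A.

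GADD45A (chromosome 1, 68150860 to 68154021, plus strand) carried at its start the strongest vehicle summit of the 8 loci. There 106 tags were found with GSK2879552 and 115 with vehicle (0.784, 0.596 to 1.03), above 99.9% of either list. Inside the gene, 1674 and 1631 bp from the start, there were 51 and 80 tags (0.542, 0.374 to 0.780). Classical p53 regulation of GADD45A runs through an element inside the gene, but which intron or exon this summit lies in was not determined. In 10 kb around the start there were 941 and 1122 tags (0.713, 0.653 to 0.779). At both CDKN1A and GADD45A a region inside the gene had a lower ratio than the promoter summit, with intervals that overlap within each gene. Both regions were named as extreme pairs of at least 40 tags, so were picked by their values. Over both lists they had fewer tags than the promoter pairs, 78 against 138 at CDKN1A and 131 against 221 at GADD45A. Genome-wide the median ratio was 0.756 at 0 to 39 tags, 0.638 at 40 to 79 and 0.705 at 100 or more. The part of tag number was not tested. The same order held past the 3′ end of JUN (0.660 against 0.745), and the opposite just past that of JUNB (0.766 against 0.712).

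**Figure D3:**
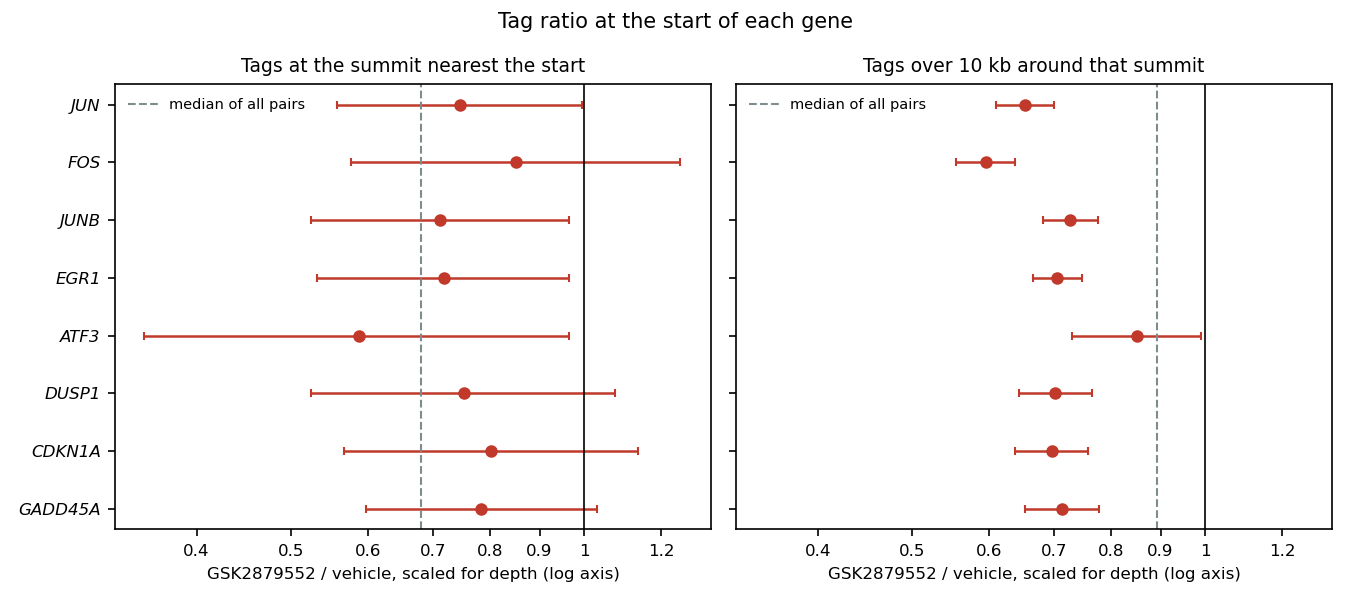
Ratio of GSK2879552 to vehicle, scaled for depth, on a log axis with 95% counting intervals, for the summit nearest each start (left) and the 10 kb around it (right). For EGR1 and ATF3 the GSK2879552 summit is the one nearest to the vehicle summit, and the dashed lines mark the medians of all pairs, 0.680 and 0.892.

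With the summit nearest the start in each list, 7 of 8 summit intervals included 0.680, the median over all pairs, and that of ATF3 lay below it. With the matched summits of EGR1 and ATF3 all 8 included it. In 7 of the 8 windows the 10 kb interval lay below 0.892, the median over all pairs, under either choice (24.6% of all pairs). ATF3, with its window near the annotated start, was the exception. At the strongest ATF3 region, 43 kb into the gene, the 10 kb ratio was 0.690 (0.643 to 0.740), below 0.892 too. The ratio depended on density genome-wide, so each of the 8 windows was also set against pairs of like density. The median was 0.931 over pairs with under 1000 tags, 0.835 at 1000 to 2000 tags, 0.780 over the 3707 pairs with 2000 to 3000 tags and 0.771 over the 875 pairs with 3000 to 4000, but 0.949 over the 473 pairs with more. In 6 of 8 windows, all but JUNB and ATF3, the interval lay below the median of its own density class under either choice (19.5% of all pairs, with 16.8% in the sparsest class and 34.7% in the densest, that of EGR1). By rank, FOS stood lowest in its class, and 3.66% of its class had a ratio as low as JUN. The shares as low were 11.7% for CDKN1A, 13.4% for DUSP1, 17.9% for GADD45A and 25.3% for JUNB, so these windows were not extreme among pairs of like density. At a 10 kb difference of 1.5-fold or more, 5 of 49 member pairs were lower (2.43% of all pairs). In the class of 3000 to 4000 tags it was 4 of 12 member pairs, against 6.06% of all pairs of that class. They lie in 3 places only, FOS with 2, JUN with 2 and ATF3 past its 3′ end with 1, and pairs of 1 place share most of their window.

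**Figure D4:**
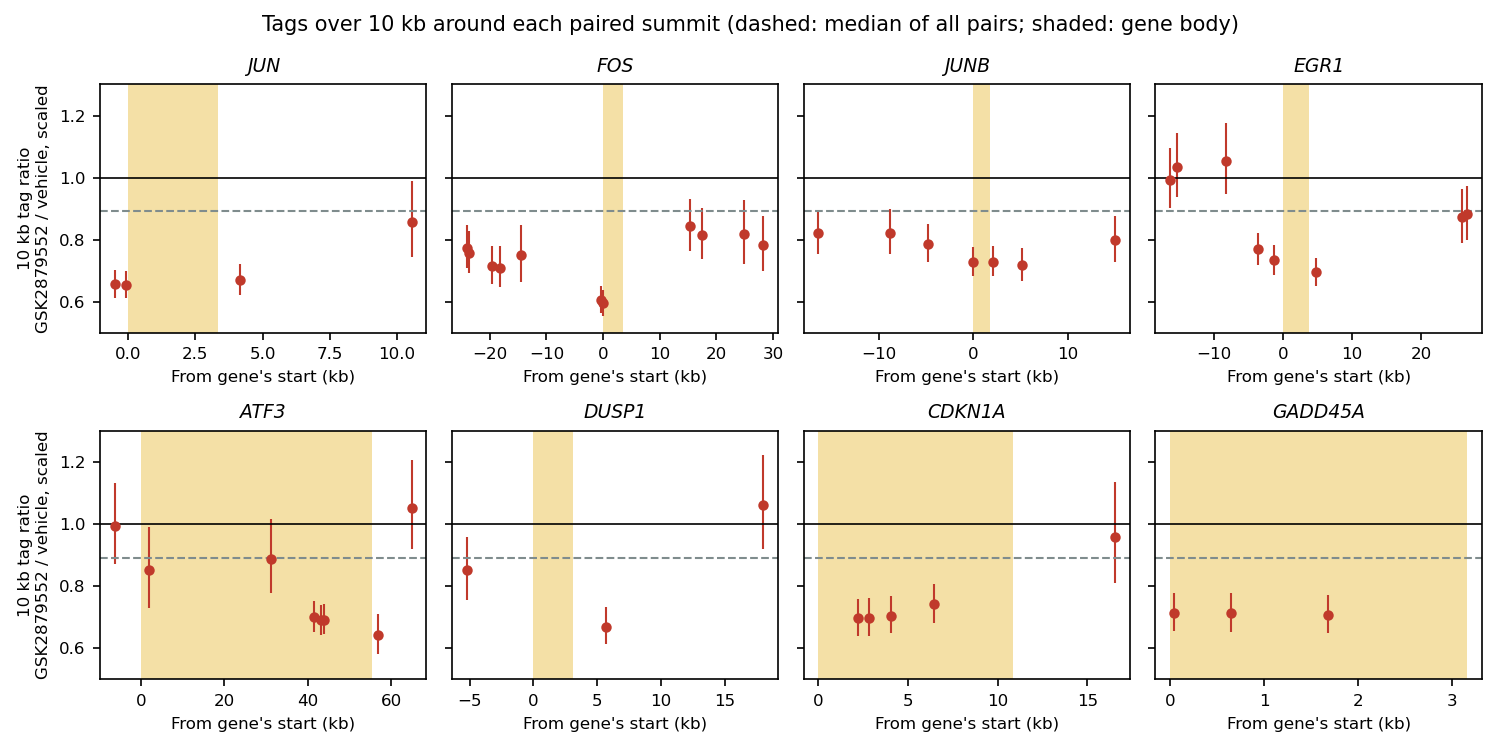
Scaled ratio of tags over 10 kb, GSK2879552 to vehicle, around each paired summit against its distance from the gene's start (kb), with 95% counting intervals, the gene body shaded and the median of all pairs, 0.892, dashed. The ratios are lowest at the start of FOS (0.595), just past the 3′ end of ATF3 (0.642) and around JUN (0.653), and near 1 at the elements 16.3 kb upstream of EGR1 and 18024 bp from DUSP1.

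The 18 paired summits within 5 kb of a start had 10 kb ratios from 0.595 to 0.851, with a median of 0.706. The 24 beyond 10 kb had ratios from 0.642 to 1.06, with a median of 0.816, and 9 of these were from FOS and 6 from the long ATF3 locus. At ATF3 the 1 near pair had 0.851 and the far ones 0.642 to 1.05. There distances were taken from the annotated start and not from the second RefSeq start or any other alternative start. Without ATF3 the near windows held 917 to 1711 tags after GSK2879552 and 1103 to 2024 with vehicle, and the far ones 299 to 1083 tags after GSK2879552 and 265 to 1146 with vehicle. The part of density in this difference was not tested. The summit ratios of the same pairs of all 8 genes had medians of 0.689 within 5 kb and 0.714 beyond 10 kb.

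Of the member peaks, 6 of 67 in the GSK2879552 list had no vehicle partner (23.5% of all peaks) and 18 of 77 in the vehicle list had no GSK2879552 partner (38.5%). The members were stronger than the typical peak, with a median of 49 tags with GSK2879552 and 48 with vehicle against 20 and 22 over all peaks, and the part of peak strength in these shares was not tested. The GSK2879552-only peaks were weak, from 11 tags upstream of JUN to 23 tags 27.8 kb from the start of EGR1, and 3 of the 6 lay in the ATF3 gene. The vehicle-only peaks went from 9 tags at GADD45A to 50 tags in JUNB, and 7 of the 18 lay at ATF3. FOS, JUNB, CDKN1A and GADD45A had no GSK2879552-only peak, and EGR1 had no vehicle-only peak. A vehicle peak that overlapped 2 GSK2879552 peaks was found at JUN, JUNB, EGR1 and DUSP1, in 4 of 77 cases (3.15% of all peaks), and the opposite at FOS in 2 of 67 (0.665%).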

How the data were processed

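Peak lists of ATAC-seq in LNCaP cells were used, 1 per condition, each named by the labels of both lanes. The submitters' processing notes list MACS2 2.1.2, SAMtools 0.1.18, BWA 0.7.2 and the build hg19 (GRCh37) without saying what each did. For trimming, duplicate removal and read shifts, nothing is stated. Per peak the authors deposited a score, a fold (the ratio of summit tags to background, each with 1 added), a −log10 p, a −log10 q and a summit offset. Whole tags matched the −log10 p within 0.001 for 100% of rows in both lists. Local backgrounds were multiples of 0.01 tags in 100% of rows above the genome-wide level, as tags of 100 bp over 10 kb give. The tag number in 10 kb was therefore taken as 100 times the background. This is an inference, since the tag length and window of the peak caller are not stated. The recovery was tested on simulated data. Total tags per library are not given, and no summit exceeded 193 tags with GSK2879552 or 194 with vehicle. Keeping 1 tag per position and strand, which was not stated, would set a limit of 200.

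Peaks were paired at 1 bp of overlap. Intervals are exact (Poisson, binomial, Clopper-Pearson). Gene positions came from the rule that defines the loci, strands and promoters from RefSeq, and the strand of GADD45A from general knowledge. No other hg19 gene position was used, so further genes of these pathways were not analysed here. The members, motifs and lists were chosen with earlier results of these data known, and the 10 kb tags, their density classes and the split by distance after the lists were seen. The named peaks were those nearest each start, the strongest, the unpartnered ones and the most extreme pairs of at least 40 tags, with others chosen after their values were seen. Python 3.11.15, NumPy 2.4.6, pandas 2.3.3, SciPy 1.17.1 and Matplotlib 3.10.9 were used.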

Additional observations from a re-analysis of the deposited data

How the results depend on the processing

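Leaving out a replicate was not possible with 1 peak list per condition. No paired analysis was possible because each condition had 1 list and its lanes are technical replicates. The 76 recomputed values leave out the 10 kb ratios away from the starts. Among the 76 no ratio changed its side of 1, apart from the FOS start summit, which had equal tags (ratio 1) unscaled. Of the 76, 58 stayed within their interval or within 1.5 times their count. The other 18 are given here, and their cause was not tested except where the setting itself shows it. With windows of 50 kb the loci held 108 GSK2879552 and 128 vehicle peaks, since the windows were larger. Keeping only peaks with a −log10 q of 5 or more, 100% of GSK2879552 member peaks had a partner, against 91.0%. With a reciprocal overlap of 50% the partnered shares were 64.2% for GSK2879552 and 55.8% for vehicle, against 91.0% and 76.6%. The median log2 ratio of paired summits, -0.49, was -0.26 without scaling and -0.59 corrected for 1 tag per position and strand, and the summed ratio without scaling was 0.837. Without scaling the 10 kb ratios at the starts were 0.768 for JUN, 0.700 for FOS, 0.855 for JUNB, 0.903 for EGR1, 0.982 for ATF3, 0.825 for DUSP1, 0.818 for CDKN1A and 0.839 for GADD45A, all around the summit nearest the start. Around the matched summits they were 0.829 for EGR1 and 1 for ATF3. Away from the starts, some 10 kb ratios passed 1 without scaling. The ratio 10.5 kb from the start of JUN went from 0.857 to 1.01. At 16.3 kb upstream of EGR1 it went from 0.993 to 1.17, and at 16.6 kb from the start of CDKN1A from 0.960 to 1.13. Those at FOS and JUNB stayed below 1. Taking the GSK2879552 summit nearest to the vehicle summit, and not the one nearest to the start, gave a 10 kb ratio of 0.705 for EGR1, against 0.768, and a summit ratio of 0.587 for ATF3, against 0.284. The 10 kb results and the matching to the vehicle summit were added after the data were seen.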
